A study of Mus musculus with 6 samples.

Results

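The 37 genes described here act in G2 phase and mitosis, the stages in which a cell that has copied its DNA divides it between daughter cells. They are a named list of mitotic cyclins, mitotic kinases, kinetochore proteins, spindle and cytokinesis proteins, chromosome proteins and proteins of the degradation machinery, and were found by their gene symbol among 22349 named genes. All 37 had a probe set, the group of array probes that reads a transcript, and all 37 passed the filter on low values that left 16762 genes for testing. Where a gene had several probe sets, the one with the highest mean over all arrays was used, which concerned 3 of the 37. Total RNA came from cultures of mesenchymal stem cells (stromal cells that adhere to plastic) from mouse marrow, grown in a commercial stem cell medium. Dense cultures were seeded with 2500000 cells and sparse cultures with 15000, and cells of either density were collected 1, 2 and 3 days after seeding. There was 1 Affymetrix array per density and day, 6 in all, and the labels call the cell samples independent. No treatment, genotype, strain, age or passage is given in the sources used here, and all 6 titles share a prefix that the labels do not explain.

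Entry into mitosis is driven by the kinase Cdk1 bound to A- and B-type cyclins, together with the polo and aurora kinases. Chromosomes then attach to the spindle through kinetochores, a checkpoint holds the cell until they are attached, and the ubiquitin ligase APC/C marks cyclins and securin for destruction so that sister chromatids part and the cell cleaves. Most genes of this programme are transcribed periodically, late in the cell cycle, and are silent in cells that have left it, so that their RNA is widely read as a sign of proliferation. In marrow stromal cultures, growth slows as cells become crowded.

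All values are log2 values of the RMA type, in which a difference of 1 is a 2-fold change, and levels are compared between arrays for the same gene only. Array medians over all probe sets ran from 4.33 to 4.45. The 13 listed stromal markers all passed the filter, led by Col1a2 and Col1a1, the genes of type I collagen, with Col1a2 between 12.41 and 12.75 in dense cultures and between 10.79 and 11.59 in sparse ones. The summed stromal level was 13.87 to 14.26 in dense cultures and 12.69 to 13.08 in sparse ones, and its part in the results was not tested. Averaged over the days, 8 of the 13 passed limma's test as higher in dense, against 8.26% of tested genes, and Cd44, a receptor of hyaluronan, passed as lower (−1.09, adjusted p = 0.0100). Eng, Nt5e, Itgb1 and Vcam1 did not pass, and the mean of Eng (4.32) lay below the median of all named genes. Of 9 macrophage and leukocyte markers, 8 had mean values below 4.83, the median of all named genes, among them the defining leukocyte gene Ptprc at 2.95 to 3.33. Their summed level was 7.12 to 7.27 in dense cultures and 7.15 to 7.35 in sparse ones. All 5 lymphoid and all 5 endothelial markers also lay below that median. Of 5 erythroid markers 3 did; the bright one was the transferrin receptor Tfrc, which dividing cells of many kinds use, and which lay between 9.27 and 10.22 in dense cultures and between 10.11 and 10.68 in sparse ones. In RNA from whole cultures, fewer cells in mitosis and less RNA of these genes per cell cannot be told apart.

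In dense cultures the mitotic genes fell from day to day, and in sparse cultures they stayed closer to their starting values. Each of the 37 genes was lower on day 3 than on day 1 in dense cultures, by 2.08-fold (Cenpk) to 7.31-fold (Mki67), with a median log2 change of −2.15 or 4.43-fold. In sparse cultures the median log2 change over the same days was −0.30, or 1.23-fold. All 37 genes were at least 2-fold lower on dense day 3 than on dense day 1, against 2.87% of the 16762 tested genes, and 22 were at least 4-fold lower, against 0.400%. In sparse cultures 1 of the 37, Prr11, was at least 2-fold lower on day 3, against 1.32% of tested genes. The array of dense day 3 gave the lowest of the 6 values for all 37 genes, and it was the lowest for 19.4% of tested genes.

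**Figure D1:**
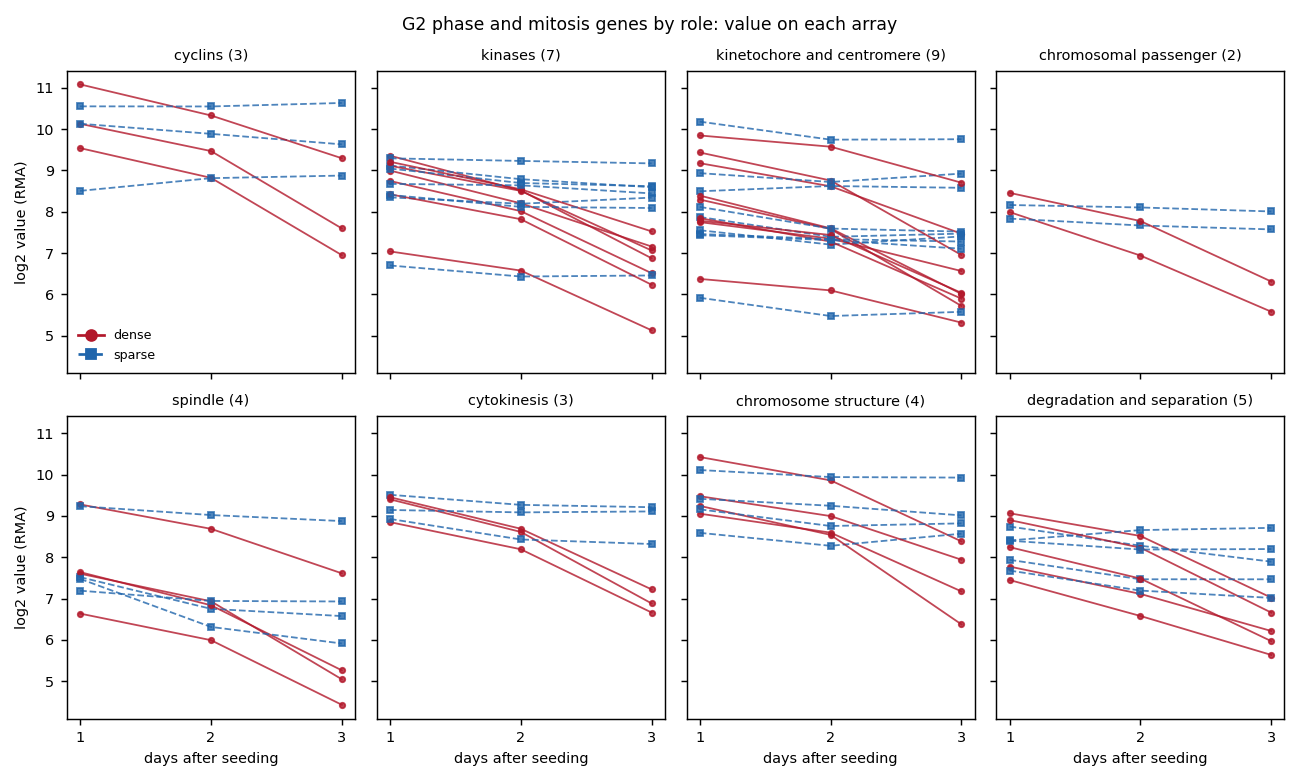
Log2 value of each of the 37 genes on each array (vertical axis) against days after seeding (horizontal axis), in 8 panels by role with the number of genes in brackets. Red lines with circles are dense and blue dashed lines with squares are sparse cultures, 1 array per point, with no error bars because no day has a replicate; every red line ends below its start, while most blue lines are nearly level.

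The change per day was tested with limma in a model that gives each density its own level and slope, with p-values adjusted over all 16762 genes. The slope in dense cultures passed at an adjusted p under 0.05 for 36 of 37 genes, all negative, against 2.64% of tested genes with a negative slope that passed. The dense slopes ran from −1.44 ± 0.19 (SE, fit to all 6 arrays) log2 per day for Mki67 to −0.53 ± 0.12 for Cenpk, with a median of −1.07, and that over all tested genes was 0.02. Their adjusted p-values were 0.00895 to 0.0449 for the 36 genes and 0.0554 for Cenpk, a gene of the inner kinetochore. Mki67, the gene of the proliferation antigen Ki-67, had the steepest negative dense slope of all 16762 tested genes. Of the 100 steepest, 27 were members, which make up 0.221% of tested genes. Without the array of dense day 3, 12 of 37 passed, with 194 of all 16762 genes passing as negative, and the median slope was −0.67. Without dense day 1, 37 passed, with 743 of all genes, and without dense day 2, 37 passed, with 1270 of all genes. In these 3 fits the dense line runs through 2 arrays and its error comes from the sparse arrays and the prior, so that these counts do not bear on how stable the dense fall is. Without any single sparse array 0 of 37 and 0 of 16762 passed in limma, with 37 of 37 at an unadjusted p under 0.05 (10.2% of tested genes had a negative slope at that level with all 6 arrays) and adjusted p-values from 0.0776 to 0.139. With 1 array per density and day, the error of these slopes is the departure from a straight line over the days, not the spread of replicate cultures. That error pools both densities and the prior, so that a gene has the same SE for its dense and its sparse slope. The precision of either density was not measured on its own.

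In sparse cultures 0 of 37 slopes passed in limma, against 0.0477% of tested genes with a negative slope that passed, and 5 had an unadjusted p under 0.05 with a negative slope, against 9.96%. The sparse slopes ran from −0.78 ± 0.16 (SE, shared with the dense slope) log2 per day for Prr11 to 0.19 ± 0.15 for Ccnb2, with a median of −0.15, and 33 of 37 were negative. Without any single dense array, 4 sparse slopes passed, with 858 of all genes passing as negative, those of Prr11, Nusap1 (−0.47), Ccnf (−0.43) and Espl1 (−0.33), with adjusted p-values from 0.000159 to 0.0437.

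The difference between the dense and the sparse slope was negative for all 37 genes, with a median of −0.93 log2 per day against 0.03 over all tested genes. It passed for 1 gene, Birc5, at −1.08 ± 0.13 (SE, 3 arrays per density; adjusted p = 0.0475), against 0.113% of tested genes with a negative difference that passed. At an unadjusted p under 0.05 there were 34 of 37 genes, against 7.44% of tested genes with a negative difference. The largest differences were those of Ccnb2 (−1.48, adjusted p = 0.0556), Mki67 (−1.27, adjusted p = 0.0923) and Nuf2 (−1.24, adjusted p = 0.0687). The smallest were those of Prr11 (−0.32, adjusted p = 0.530), Mad2l1 (−0.36, adjusted p = 0.354) and Cenpk (−0.36, adjusted p = 0.350). Leaving out a single array moved the count widely: 31 passed without dense day 1, 34 without dense day 2, 2 without dense day 3 and 0 without sparse day 1, 2 or 3. The negative calls over all 16762 genes in these fits were 690, 825 and 127 without dense day 1, 2 and 3, and 0 without any single sparse array. Each such fit takes its error from the departures of the other density alone and the prior.

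**Figure D2:**
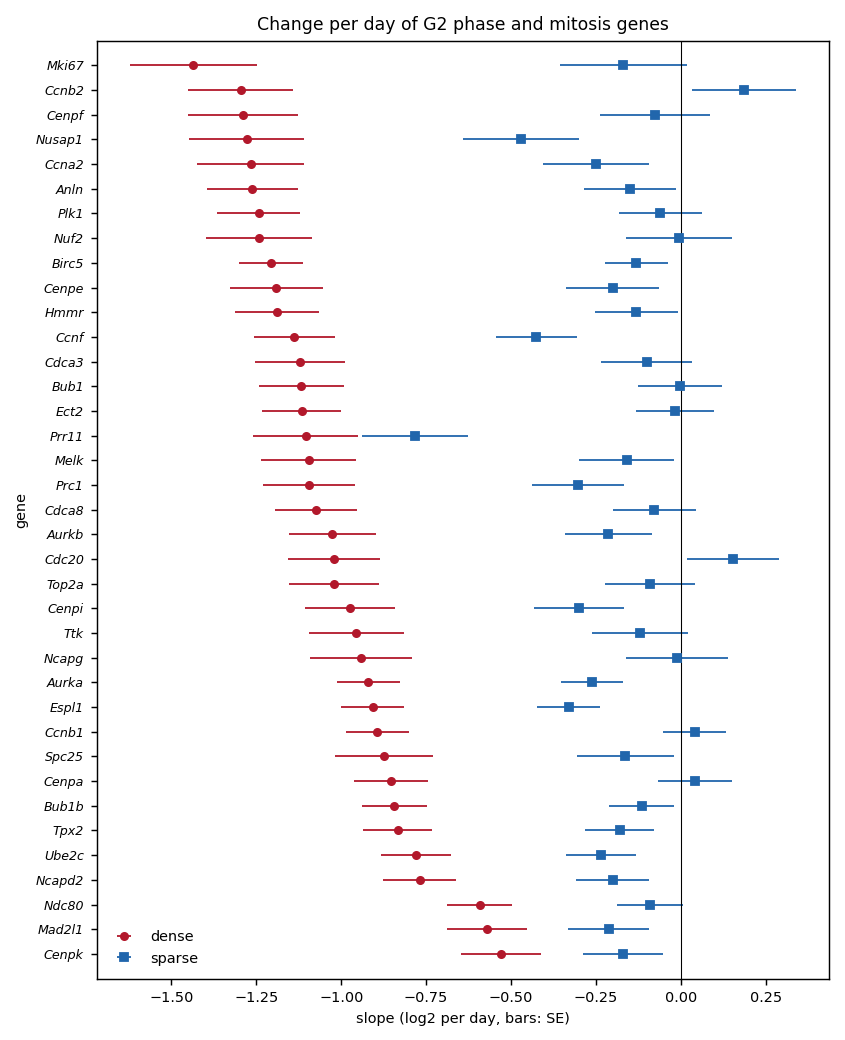
Slope in log2 per day (horizontal axis) of each of the 37 genes (vertical axis), ordered by the dense slope, from the limma fit with a level and slope per density. Red circles are dense and blue squares sparse cultures. Bars are standard errors, which are the same for both densities of a gene. The dense slopes lie between −1.44 and −0.53, and the sparse slopes between −0.78 and 0.19.

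On the single arrays of dense cultures, the later step held the larger fall. From day 1 to day 2 the 37 genes changed by −1.05 to −0.27 on the log2 scale, with a median of −0.67, and from day 2 to day 3 by −2.17 to −0.78, with a median of −1.47. The later step was the larger fall for 37 of 37 genes, against 36.7% of tested genes, and the value went down at both steps for 37 of 37, against 21.5%. In sparse cultures the median change was −0.24 from day 1 to day 2 and −0.04 from day 2 to day 3. The value went down at both steps there for 22 of 37 genes, against 26.9% of tested genes. Each step compares 1 array with 1 array and was not tested. The members moved together over the 6 arrays, with a median pairwise Pearson r of 0.96 and a range from 0.50 to 0.998. The 37 genes are therefore not separate observations of a step. The array of dense day 3, the lowest for all 37, weighs heavily in this r, which was not computed without it.

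Which density had the higher value differed by day. On day 1 dense values lay above sparse values for 27 of 37 genes, against 46.0% of tested genes, with a median difference of 0.29. On day 2 they lay above for 11 of 37, against 46.3%, with a median of −0.19. On day 3 they lay above for 0 of 37, against 48.5%, with a median of −1.55, and 34 of 37 were at least 2-fold lower, against 2.94% of tested genes. The exceptions on day 3 were Bub1b (−0.92), Ndc80 (−0.71) and Cenpk (−0.26). Single days have 1 array per density and no test.

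**Figure D3:**
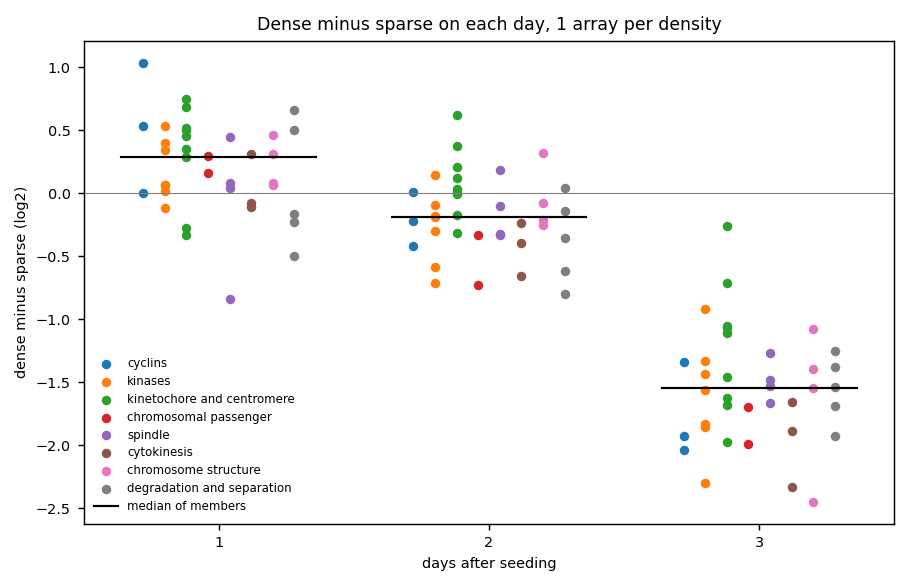
Dense minus sparse log2 difference (vertical axis) on each day (horizontal axis) for the 37 genes, coloured and offset by role, with a black line at the median of all 37. Each point rests on 1 array per density; the medians are 0.29, −0.19 and −1.55 on days 1, 2 and 3.

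Averaged over the days, the density difference passed limma's test for 0 of 37 genes, against 2.90% of tested genes that passed as lower in dense. This model has no term for a density difference that changes over the days, so that such a change enters its error. The median residual standard deviation was 0.68 for the members and 0.16 for all tested genes. The count of 0 therefore does not show that the densities were alike. An unadjusted p under 0.05 with a negative difference was found for 8 of 37, against 15.2% of tested genes, and the median difference was −0.52 against −0.05 over all tested genes. The largest were those of Ccnf (−1.07 ± 0.28, SE, 3 arrays per density; adjusted p = 0.0625) and Anln (−1.03 ± 0.41, adjusted p = 0.143), and Cenpk was the single gene with a positive value (0.27 ± 0.20, adjusted p = 0.358). Without the day 3 arrays the median was −0.02, and Ccnf passed (−0.65, adjusted p = 0.0349), as it did without the day 1 arrays (−1.36, adjusted p = 0.0473). The dense and the sparse values overlapped for all 37 genes: for 0 of 37 did all dense values lie below all sparse values, against 19.0% of tested genes. By the p-values for density in the authors' deposited table, 0 of 37 members had p under 0.05, with a smallest member p of 0.207, and 20.4% of all probe sets did.

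The 3 mitotic cyclins, which activate Cdk1 and are destroyed as mitosis proceeds, all fell in dense cultures. Ccnb2, a B-type cyclin gene, had values of 9.54, 8.82 and 6.95 on dense days 1, 2 and 3, and of 8.50, 8.81 and 8.88 on sparse days 1, 2 and 3. It began 1.04 higher in dense on the log2 scale, the single member at least 2-fold higher on day 1, against 3.29% of tested genes, and ended with a dense minus sparse difference of −1.93. Its dense slope was −1.30 ± 0.15 log2 per day (SE shared by both densities, limma adjusted p = 0.0106). Ccnb1, the main B-type cyclin gene, had 11.08, 10.33 and 9.30 in dense and 10.55, 10.55 and 10.63 in sparse cultures, so that the sparse values spanned less than 0.1 while the dense values fell by 1.79 on the log2 scale. Its dense slope was −0.89 ± 0.09 (adjusted p = 0.00895). Ccna2, whose product acts in S phase and at entry into mitosis, had 10.13, 9.47 and 7.60 in dense and 10.13, 9.89 and 9.63 in sparse cultures. The densities were level on day 1, and the dense slope was −1.27 ± 0.16 (adjusted p = 0.0117).

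The 7 kinase genes all fell in dense cultures, with slopes from −1.24 (Plk1) to −0.84 (Bub1b) log2 per day. Plk1, the polo kinase that acts at centrosomes, kinetochores and the cleavage site, had 9.36, 8.51 and 6.87 on dense days 1 to 3 and 9.29, 9.23 and 9.17 on sparse days 1 to 3. Its dense minus sparse difference went from 0.06 on day 1 to −2.30 on day 3. Aurka, the aurora kinase of centrosomes and spindle poles, had 9.00, 8.20 and 7.16 in dense and 9.12, 8.79 and 8.59 in sparse cultures. Aurkb, the kinase of the chromosomal passenger complex, which corrects faulty attachments, had 9.11, 8.50 and 7.06 in dense and 9.05, 8.69 and 8.62 in sparse cultures. The dense minus sparse differences of Aurka and Aurkb on day 1 were −0.12 and 0.07, and their dense slopes were −0.92 ± 0.09 and −1.03 ± 0.13 (adjusted p = 0.00895 and 0.0120).

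The checkpoint kinase genes all lay higher in dense on day 1. Bub1, which recruits checkpoint proteins to kinetochores, had 8.74, 8.01 and 6.51 in dense and 8.35, 8.19 and 8.34 in sparse cultures. Bub1b, the gene of the checkpoint protein BubR1, had 9.21, 8.54 and 7.52 in dense and 8.67, 8.64 and 8.44 in sparse cultures. Ttk, the gene of the Mps1 kinase at the head of the checkpoint, had 7.04, 6.57 and 5.13 in dense and 6.70, 6.43 and 6.46 in sparse cultures. Their differences on day 1 ran from 0.34 to 0.54 on the log2 scale, and all 3 lay lower in dense on day 3. Melk, a kinase gene that marks proliferating cells, was level between densities on day 1 (8.42 and 8.41), and its dense minus sparse difference on day 3 was −1.86.

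Kinetochore and centromere genes spanned the widest range of falls among the roles, from −2.58 to −1.06 between dense days 1 and 3, and 8 of 9 slopes passed. Cenpf and Cenpe, whose products sit on the outer kinetochore and link it to microtubules, were at the steep end. Cenpf had 8.30, 7.58 and 5.72 in dense and 7.55, 7.20 and 7.40 in sparse cultures, with a dense slope of −1.29 ± 0.16 (adjusted p = 0.0122). Cenpe had 8.39, 7.60 and 6.01 in dense and 7.87, 7.39 and 7.47 in sparse cultures. Both were higher in dense on days 1 and 2 and lower on day 3.

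The Ndc80 complex, which holds the microtubule end, is encoded in part by Ndc80, Nuf2 and Spc25, and its genes fell by unequal amounts. Nuf2 had 9.43, 8.76 and 6.95 in dense and 8.93, 8.72 and 8.92 in sparse cultures, a 5.59-fold fall from dense day 1 to day 3. Spc25 had 7.78, 7.44 and 6.03 in dense and 7.43, 7.31 and 7.10 in sparse cultures, a 3.36-fold fall. Ndc80 had 7.75, 7.35 and 6.56 in dense and 7.46, 7.34 and 7.28 in sparse cultures, a 2.27-fold fall. The dense slopes were −1.24 ± 0.16, −0.87 ± 0.14 and −0.59 ± 0.10 log2 per day for Nuf2, Spc25 and Ndc80, and the difference between genes was not tested.

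The centromere genes of the inner kinetochore included the member with the smallest change. Cenpa, the gene of the histone H3 variant that marks centromeres, had 9.18, 8.62 and 7.47 in dense and 8.49, 8.62 and 8.58 in sparse cultures. Cenpi had 7.84, 7.28 and 5.90 in dense and 8.12, 7.59 and 7.52 in sparse cultures. Cenpk had 6.37, 6.09 and 5.31 in dense and 5.92, 5.47 and 5.58 in sparse cultures. Cenpk was the member closest between densities on day 3, at −0.26, and its dense day 3 value lay 0.16 below the lowest sparse value. Mad2l1, the gene of the checkpoint effector Mad2, which inhibits Cdc20, had 9.85, 9.57 and 8.70 in dense and 10.18, 9.74 and 9.76 in sparse cultures. Its dense slope of −0.57 ± 0.12 had the largest adjusted p among the genes that passed, 0.0449.

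The chromosomal passenger genes Birc5 and Cdca8 encode survivin and borealin, which bring Aurkb to centromeres and later to the midzone. Birc5 had 7.99, 6.94 and 5.58 in dense and 7.83, 7.67 and 7.57 in sparse cultures. Its first dense step of −1.05 was the largest of the 37 genes, and its dense slope was −1.21 ± 0.09 log2 per day (adjusted p = 0.00895). Cdca8 had 8.46, 7.77 and 6.31 in dense and 8.16, 8.10 and 8.01 in sparse cultures, with a dense slope of −1.07 ± 0.12. For both genes the 3 sparse values spanned less than 0.3 on the log2 scale.

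The 4 spindle genes fell in dense cultures, and 2 of them were also among the members with the most negative sparse slopes. Tpx2, which activates Aurka on spindle microtubules, had 9.28, 8.69 and 7.61 in dense and 9.24, 9.02 and 8.88 in sparse cultures. Hmmr, the gene of a hyaluronan-binding spindle protein, had 7.64, 6.84 and 5.26 in dense and 7.19, 6.94 and 6.93 in sparse cultures. Nusap1, which bundles spindle microtubules, had 7.60, 6.93 and 5.04 in dense and 7.52, 6.75 and 6.58 in sparse cultures. Prr11, a gene expressed late in the cell cycle, had 6.64, 5.99 and 4.43 in dense and 7.48, 6.31 and 5.91 in sparse cultures. The sparse value of Prr11 on day 1 was the highest of the 6 arrays by 0.84 and its sparse change from day 1 to day 2 was −1.16. Its dense and sparse slopes were −1.10 ± 0.16 and −0.78 ± 0.16.

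All 3 cytokinesis genes fell in dense cultures, with slopes from −1.26 to −1.10 log2 per day. Anln, the gene of anillin, which links actin, myosin and septins in the contractile ring, had 9.40, 8.61 and 6.88 in dense and 9.51, 9.27 and 9.21 in sparse cultures. Ect2, the exchange factor that activates RhoA at the cleavage site, had 9.45, 8.69 and 7.22 in dense and 9.14, 9.09 and 9.11 in sparse cultures. Prc1, which bundles the microtubules of the midzone, had 8.85, 8.19 and 6.66 in dense and 8.93, 8.43 and 8.32 in sparse cultures. The adjusted p-values of the dense slopes were 0.00895 for Anln and Ect2 and 0.0114 for Prc1. On day 3 the dense minus sparse difference of Anln was −2.33, close to the widest such difference among the 37 genes, that of Mki67 at −2.45.

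The 4 chromosome genes all fell in dense cultures. Mki67, whose product coats mitotic chromosomes and keeps them apart, had 9.24, 8.54 and 6.37 in dense and 9.16, 8.76 and 8.82 in sparse cultures. The densities started within 0.1 of each other, and the dense value then fell by 0.70 and by 2.17 on the log2 scale in the earlier and the later step. Top2a, the topoisomerase that untangles sister chromatids, had 10.43, 9.86 and 8.38 in dense and 10.11, 9.94 and 9.93 in sparse cultures. The condensin genes Ncapg and Ncapd2, whose products compact chromosomes, had slopes of −0.94 ± 0.15 and −0.77 ± 0.11 in dense cultures. Ncapg had 9.06, 8.60 and 7.17 in dense and 8.59, 8.28 and 8.57 in sparse cultures, and Ncapd2 had 9.48, 9.00 and 7.94 in dense and 9.42, 9.25 and 9.01 in sparse cultures.

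The 5 genes of degradation and chromatid separation also fell in dense cultures, with slopes from −1.14 to −0.78 log2 per day. Cdc20, which activates the APC/C at the onset of anaphase, had 9.07, 8.52 and 7.02 in dense and 8.41, 8.66 and 8.71 in sparse cultures. It was among the 4 members whose sparse slope was positive, with Ccnb1, Ccnb2 and Cenpa. Ube2c, the ubiquitin-conjugating enzyme of the APC/C, had 7.77, 7.11 and 6.21 in dense and 7.94, 7.47 and 7.47 in sparse cultures. Ccnf, which encodes the F-box protein cyclin F of an SCF ubiquitin ligase, had 8.24, 7.48 and 5.97 in dense and 8.74, 8.28 and 7.89 in sparse cultures. Ccnf lay lower in dense on all 3 days, with dense minus sparse differences of −0.50, −0.80 and −1.93. Espl1, the gene of separase, the protease that opens the cohesin ring, had 7.45, 6.58 and 5.63 in dense and 7.68, 7.19 and 7.02 in sparse cultures, and was likewise lower in dense on each day. Cdca3, linked to the degradation of the mitotic inhibitor Wee1, had 8.90, 8.23 and 6.66 in dense and 8.40, 8.19 and 8.20 in sparse cultures.

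Set side by side, all 8 roles had a negative median in dense cultures. The median log2 change from dense day 1 to dense day 3 was −2.53 for the 3 cyclins, −2.05 for the 7 kinases, −1.75 for the 9 kinetochore genes and −2.28 for the 2 passenger genes. It was −2.29 for the 4 spindle genes, −2.23 for the 3 cytokinesis genes, −1.96 for the 4 chromosome genes and −2.04 for the 5 genes of degradation and separation. In sparse cultures the medians ran from −0.65 for the spindle genes to 0.08 for the cyclins. On day 1 the median dense minus sparse difference was highest for the cyclins (0.53) and the kinetochore genes (0.46) and lowest for the degradation genes (−0.16). Differences between roles were not tested, and the ranges of the roles overlapped.

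Many genes of this programme share promoter elements, known from human and mouse cells: the cell cycle genes homology region (CHR), bound by the MuvB complexes DREAM and B-Myb-MuvB, and CCAAT boxes, bound by NF-Y. The promoters of the members are shown as a description, and a link between these elements and the dense fall was not tested. RefSeq promoter windows of assembly GRCm38.p6, from 250 bases before to 50 bases after an annotated start, were matched for 34 of 37 members (38 windows) by symbol; Ccna2, Aurkb and Tpx2 were not matched. The CHR core letters TTTGAA were found on either strand in 26 of 38 windows (68.4%), against 17.9% of all 32851 windows. The letters CCAAT were found on either strand in 31 of 38 windows (81.6%), against 37.4%, and at least at 2 places in 21 windows (55.3%), against 11.7%. Both motifs were in 24 windows (63.2%), against 6.95%. The variant TTCGAA, which reads the same on both strands, was in 3 of 38 windows (7.89%), against 1.56%. In the windows of the other G2 and mitosis genes described below, TTTGAA was in 44.1%, CCAAT in 66.1% and both in 33.9%. For the S phase genes described below these shares were 15.9%, 56.8% and 9.09%, so that frequent CCAAT letters are not particular to the members. A promoter can hold several of these motifs, and each was counted on its own.

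The 6 stretches of 80 bases shown here end at the base before the annotated start, and belong to the members with a single window in which TTTGAA lies within those 80 bases. They are written 5′ to 3′ on the strand of the gene, and capitals mark TTTGAA or its reverse complement TTCAAA, and CCAAT or its reverse complement ATTGG.
Cdc20: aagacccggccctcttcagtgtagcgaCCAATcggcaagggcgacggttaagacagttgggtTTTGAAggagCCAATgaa
Ube2c: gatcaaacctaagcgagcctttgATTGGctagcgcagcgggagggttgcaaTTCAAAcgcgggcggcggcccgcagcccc
Espl1: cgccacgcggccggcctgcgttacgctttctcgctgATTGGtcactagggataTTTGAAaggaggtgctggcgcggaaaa
Ccnf: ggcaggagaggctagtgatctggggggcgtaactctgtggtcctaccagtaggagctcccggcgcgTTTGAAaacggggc
Top2a: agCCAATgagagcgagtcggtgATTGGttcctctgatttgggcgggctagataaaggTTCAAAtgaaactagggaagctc
Ncapg: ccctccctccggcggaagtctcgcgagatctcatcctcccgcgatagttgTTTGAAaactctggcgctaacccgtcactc

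On GRCm38.p6 the stretch of Cdc20 is chr4:118437344-118437423 on the minus strand, that of Ube2c chr2:164769849-164769928 on the plus strand and that of Espl1 chr15:102296213-102296292 on the plus strand. That of Ccnf is chr17:24251410-24251489 on the minus strand, that of Top2a chr11:99024190-99024269 on the minus strand and that of Ncapg chr5:45669845-45669924 on the plus strand. The motif begins between 30 bases (Ncapg) and 14 bases (Ccnf) before the start in these 6. Like all members, these 6 genes fell in dense cultures, so the fall does not set them apart. Of the 6, 4 are from the degradation group. The fall is given with and without the motif, untested: the median log2 change from dense day 1 to day 3 was −2.10 for the 24 members with TTTGAA in a window and −2.21 for the 10 without it. For CCAAT it was −2.04 for the 27 members with it and −2.41 for the 7 without it. Neither motif was matched for Birc5, Mad2l1, Melk, Nuf2 and Nusap1, whose changes were −2.41, −1.14, −2.19, −2.48 and −2.56. A match is a description of letters and shows neither binding nor use of the site.

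**Figure D4:**
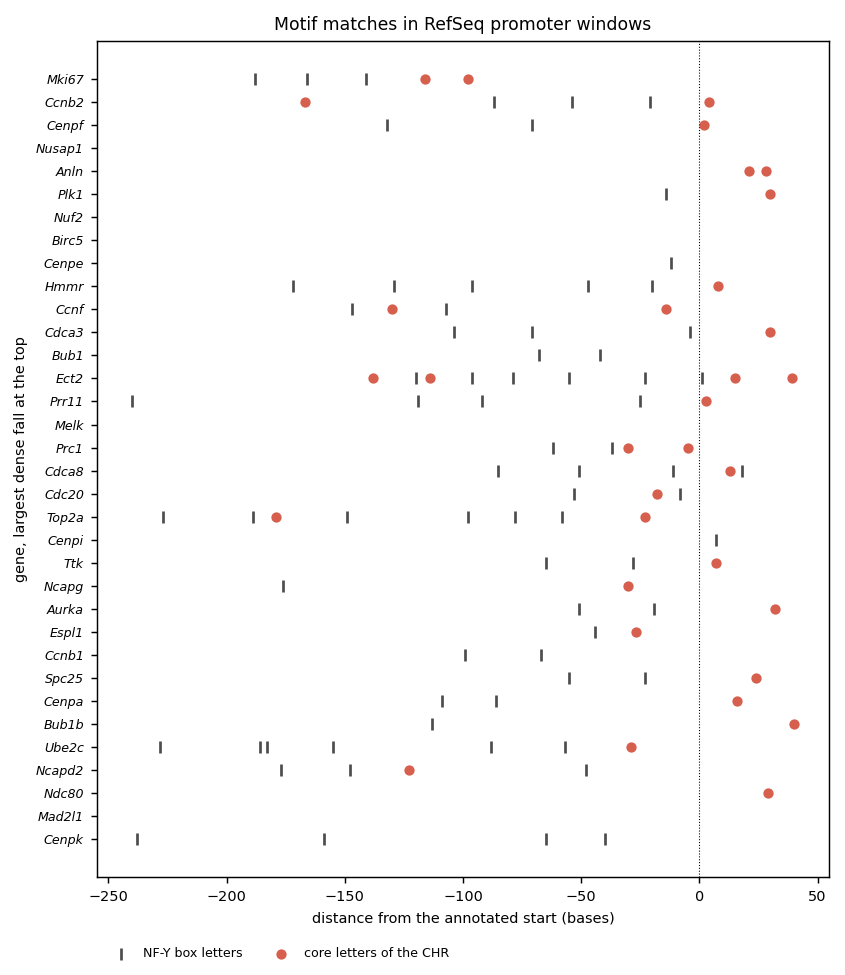
Position of motif matches in bases from the annotated start (horizontal axis, 0 at the dotted line) for the 34 members with a promoter window (vertical axis), with the largest dense fall at the top. Red circles are the first base of the CHR core letters and grey ticks that of the NF-Y box letters on either strand; windows of 1 gene with several starts share a row, and most red circles lie between 30 bases before and 40 bases after the start.

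Other genes of G2 phase and mitosis behaved in the same direction. Of 71 listed, 65 were tested. In dense cultures 47 slopes passed as negative in limma, against 2.64% of tested genes, and 0 as positive, against 1.71%. The median slope was −0.72 log2 per day, and 60 had an unadjusted p under 0.05, against 3312 of all 16762 genes. In sparse cultures 0 of 65 passed in limma, against 0.0477% of tested genes that passed as negative. At an unadjusted p under 0.05 there were 14, against 2648 of all 16762 genes. Shcbp1 had 8.60, 7.82 and 5.87 in dense and 7.81, 7.66 and 8.02 in sparse cultures, and had the largest slope difference of this list at −1.47 (adjusted p = 0.0630). Arhgap11a, the gene of a RhoA GTPase-activating protein, had 8.48, 7.71 and 6.54 in dense and 7.62, 7.64 and 7.92 in sparse cultures. Its slope difference of −1.12 passed (adjusted p = 0.0488), the single one of the 65. Further genes of the rule were the condensin gene Ncaph (−1.15), Depdc1a (−1.10), the centromere gene Cenpl (−1.09) and the Cdk1 subunit Cks2 (−1.07), none of which passed.

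Genes of S phase, the stage before G2, fell in dense cultures too, and most lay lower in dense from day 1. Of 44 tested, 29 dense slopes passed as negative in limma, against 2.64% of tested genes, and 0 as positive, against 1.71%. The median slope was −0.61 log2 per day, and 39 had an unadjusted p under 0.05, against 3312 of all 16762 genes. On day 1 dense values lay above sparse values for 14 of 44 S phase genes, for 50 of 65 other mitotic genes and for 27 of the 37 members. The share over all tested genes was 46.0%. All dense values lay below all sparse values for 17 of 44 S phase genes, for 1 of 65 other mitotic genes and for 0 of 37 members. Over all tested genes it was 19.0%. Averaged over the days, 4 of 44 S phase genes, 2 of 65 other mitotic genes and 0 of 37 members passed as lower in dense, against 2.90% of tested genes. Rrm2, a subunit of the enzyme that makes deoxyribonucleotides, had 9.29, 8.35 and 6.54 in dense and 9.42, 9.45 and 9.53 in sparse cultures, with a slope difference of −1.43 (adjusted p = 0.0483). These lists were compared by count only, without a test of the difference between them.

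**Figure D5:**
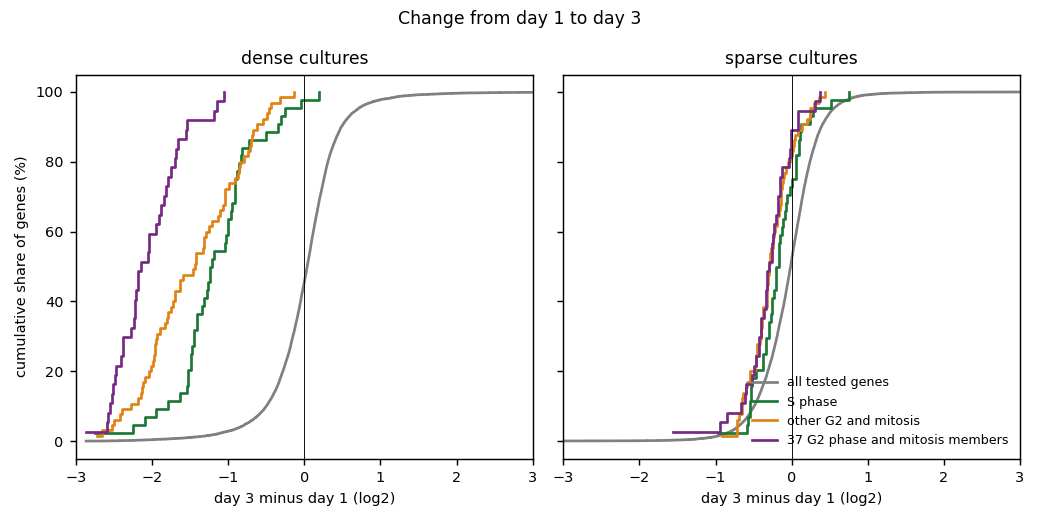
Cumulative share of genes in per cent (vertical axis) against the log2 change from day 1 to day 3 (horizontal axis, cut at −3 and 3), for dense cultures on the left and sparse cultures on the right. Purple is the 37 members, orange the 65 other mitotic genes, green the 44 S phase genes and grey all 16762 tested genes; in dense cultures the median change is −2.15, −1.44, −1.23 and 0.04 in that order.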

How the data were processed

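RNA of 6 cultures was read on 6 arrays. The values analysed were the deposited log2 intensities of each probe set on each array; RMA and Partek are named, without versions, per the submitters' processing notes. RMA compresses differences near background. A second deposited table from the authors holds gene symbols, a p-value for dense against sparse, and a linear fold change written as a score below 0 where dense was lower; its 6 columns of per-sample values were not used. Genes were tested if their mean log2 value reached the 25th percentile of named genes (3.32), which left 16762.

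Tests (2-sided) came from limma 3.58.1 (R 4.3.3; lmFit, eBayes), adjusted by Benjamini-Hochberg over all tested genes, with adjusted p under 0.05 as the threshold. A first model held density and the day as a factor, the other a level and slope per density, with 2 residual degrees of freedom each. The number of arrays limits the precision. Steps were tested on simulated data. There 2.48% of density calls, 6.15% of dense slope calls, 7.22% of sparse slope calls and 2.82% of slope difference calls were false. A 2-fold change (per day for slopes) was recovered for 40%, 90%, 92% and 72% of changed genes, in that order. The members, lists and tests were chosen with earlier results of these data known. All members, all markers and the 6 largest slope differences of each other list could be named. By label the day pairs arrays across densities; across genes, same-day deviations from the density mean had correlations of 0.127, 0.0750 and 0.0674, against −0.150 to 0.109 between different days. Alternatives were a repeated quantile normalization, no filter, the mean of probe sets, an intensity trend, no day term, an equal-variance test and leaving out arrays.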

Additional observations from a re-analysis of the deposited data

Results flagged for a closer look

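Birc5, the gene of survivin, was the single member that passed limma's test of the difference in change per day between the densities. The dense slope minus the sparse slope was −1.08 ± 0.13 log2 per day (SE, 3 arrays per density; adjusted p = 0.0475), from a dense slope of −1.21 and a sparse slope of −0.13. Its adjusted p was 0.0502 with quantile normalization applied again and 0.0558 without the filter. No group had the 4 samples needed to look for a sample far from the others. With single arrays left out it ran from 2.87e-05 (without dense day 2) to 0.957 (without sparse day 1), in fits whose error comes from the departures of the other density and the prior. With all arrays, Ccnb1 (limma adjusted p = 0.0520), Plk1 (0.0552), Ccnb2 (0.0556) and Ect2 (0.0570) lay just above the threshold. The differences of Ccnb2 (−1.48 ± 0.22), Plk1 (−1.18 ± 0.17) and Ect2 (−1.10 ± 0.16) were larger than that of Birc5, with larger SEs. The pass therefore does not set Birc5 apart from the other members.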

How the results depend on the processing

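Of the 37 dense slopes, all stayed negative under every alternative run. Each of the 37 genes fell at both dense steps, so leaving out an array could not change that sign. Lifting the filter or adding an intensity trend could not change it either. With quantile normalization, no filter or the mean of probe sets 35 passed, and with an intensity trend 36. Of all tested genes 2.64% passed with a negative dense slope in the main fit. That share is not given here for these 4 alternatives. Leaving out single arrays gave 0 to 37 passing and a median of −1.47 to −0.67, the former without dense day 1 and the latter without dense day 3. Sparse slopes passed for 0 genes under the 4 alternatives with all arrays and for 0 to 4 with an array left out. Slope differences passed for 0 genes with quantile normalization or no filter, 5 with an intensity trend (Ccnb1, Ccnb2, Plk1, Ect2 and Birc5) and 0 to 34 with an array left out, with medians of −1.33 to −0.53. The slope difference of Prr11, −0.32, ranged from −0.78 (without dense day 1) to 0.14, and reversed to 0.14 without dense day 3 and to 0.06 without sparse day 3; the cause was not tested. For dense minus sparse 2 genes passed with quantile normalization (Ccnf and Prr11), 0 to 1 without the arrays of a day, and 0 with no replicate block as with the equal-variance test. With no replicate block 0 members had an unadjusted p under 0.05 in limma, against 8 in the main fit. The count passing among the 37 members was 0 with and without the pairing by day, which does not show whether the pairing matters for them. Over all tested genes, 1384 were higher and 486 lower in dense, against 1702 and 516 with no replicate block, and 1181 and 993 with quantile normalization, and the slope difference passed for 19 as negative and 13 as positive, against 11 and 5 with quantile normalization, 2 and 3 with no filter and 52 and 32 with an intensity trend. Leaving out 1 array leaves that density no departure from its line, so counts from those fits rest on the other density's error. No day has a replicate array, so the spread of cultures is unknown, and folds of dim values are understated.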

Other observations

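Other probe sets of the members were measured as well. The 3 probe sets that carry the symbol Ccnb1 changed alike from dense day 1 to day 3, by −1.79, −1.83 and −1.83 on the log2 scale, and by 0.08, 0.09 and 0.14 in sparse cultures. Which locus each of them reads was not examined, so their likeness is not independent support. The dimmer of 2 Anln probe sets had 4.36, 4.42 and 4.48 on dense days 1 to 3, near the array medians, while the brighter fell by 2.52. The 2 dimmer probe sets of Top2a had values from 2.31 to 3.16, below the filter.

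Among the marker genes, Cd44, a receptor of hyaluronan, had negative slopes at both densities: it had 7.65, 6.99 and 6.67 in dense and 8.76, 8.13 and 7.68 in sparse cultures. Its dense slope was −0.49 log2 per day (limma adjusted p = 0.0368) and its slope difference 0.04 (adjusted p = 0.914). Tfrc, which takes up iron, had a dense slope of −0.47 (adjusted p = 0.0498) and a slope difference of −0.18 (adjusted p = 0.589).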
